A study of Homo sapiens with 24 samples.

Results

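BT549 cells given 5 µM EPZ015666 for 5 days were compared with BT549 cells given the DMSO vehicle for the same time. BT549 is an established human breast cancer line, here 1 line grown with 1 inhibitor at 1 dose. The 4 libraries, 2 per treatment, were chosen by the line, treatment and day in their labels, out of 24 in the series, and all genes of the deposited table entered. The other libraries used were BT549 at day 3 (EPZ015666 at 5 µM and DMSO, 2 libraries each) and, for day 5, the breast line MDAMB436 and the ovarian lines OVCAR8 and COV362, each with the same dose, its own DMSO and 2 libraries per treatment. Whether A and B were grown apart is not in the labels. The p-values therefore measure no more than how far libraries A and B of a group lie apart, and that spread may be technical.

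PRMT5 is the enzyme that places symmetric dimethyl marks on arginines of spliceosomal Sm proteins, histones and many RNA-binding proteins, and it works in a complex with WDR77 called the methylosome. EPZ015666 occupies the pocket for the protein substrate and blocks this activity. Loss of PRMT5 activity in dividing cells is best known for retained introns and skipped exons. The question put to these libraries is which transcripts differ in BT549 after 5 days of the inhibitor.

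Levels are RPKM as deposited, reads per kilobase of gene scaled to library size, with the whole gene span and its introns as the length. Changes are differences of log2(RPKM + 1), EPZ015666 minus DMSO, with the standard error (SE) of limma, and a gene rose or fell when its adjusted p from limma was below 0.05. A fold is the ratio of the mean RPKM of 2 libraries each. The 4 libraries held 24778269 to 26680867 recovered reads. VIM, the mesenchymal filament vimentin, stood at 122 and 119 RPKM under DMSO and 131 and 131 RPKM under EPZ015666, and CAV1 and CD44 were also present. Of the luminal genes, EPCAM gave at most 1 read and PGR none, while GATA3 stood between 4.21 and 4.79 RPKM and KRT18 between 7.52 and 10.5 RPKM. The endothelial gene CDH5 gave at most 2 reads.

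Of 6249 genes with a mean of at least 1 RPKM over the 8 BT549 libraries, 1108 rose (17.7%) and 1419 fell (22.7%), together 40.4%. Falls were the larger changes: 114 genes fell at least 2-fold (1.82%) and 25 rose as far (0.4%), and 416 fell to 1/1.5 or less (6.66%) against 149 that rose at least 1.5-fold (2.38%). The median change over all tested genes was -0.01 and the middle 50% of genes lay between -0.17 and 0.12. In 79.1% of tested genes the groups did not overlap. The count of rises depended on every 1 of the 4 libraries: it was 657 without DMSO replicate A, 571 without DMSO replicate B, 511 without EPZ015666 replicate A and 594 without EPZ015666 replicate B, and falls numbered 870 to 1001 in these fits. With recovered reads scaled by their sum in limma-voom, 3400 genes rose and 2034 fell of 11704, or 62.6% rises among calls against 43.8% above, with a median over all genes of 0.07 (29.0% and 17.4% of genes). Each gene said below to have risen or fallen had both drug libraries on 1 side of both vehicle libraries. Where a list's count without 1 library is given below, it is the lowest over the 8 fits that each leave out 1 library. It is given for some, not all, of the lists where it is less than 1/1.5 of the count. A fit without 1 library leaves 1 library in a group and so has larger standard errors for that group. Fewer calls there need not mean that the missing library stood apart. In such bulk samples a lower level in every cell and fewer cells that hold the transcript cannot be told apart.

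**Figure D1:**
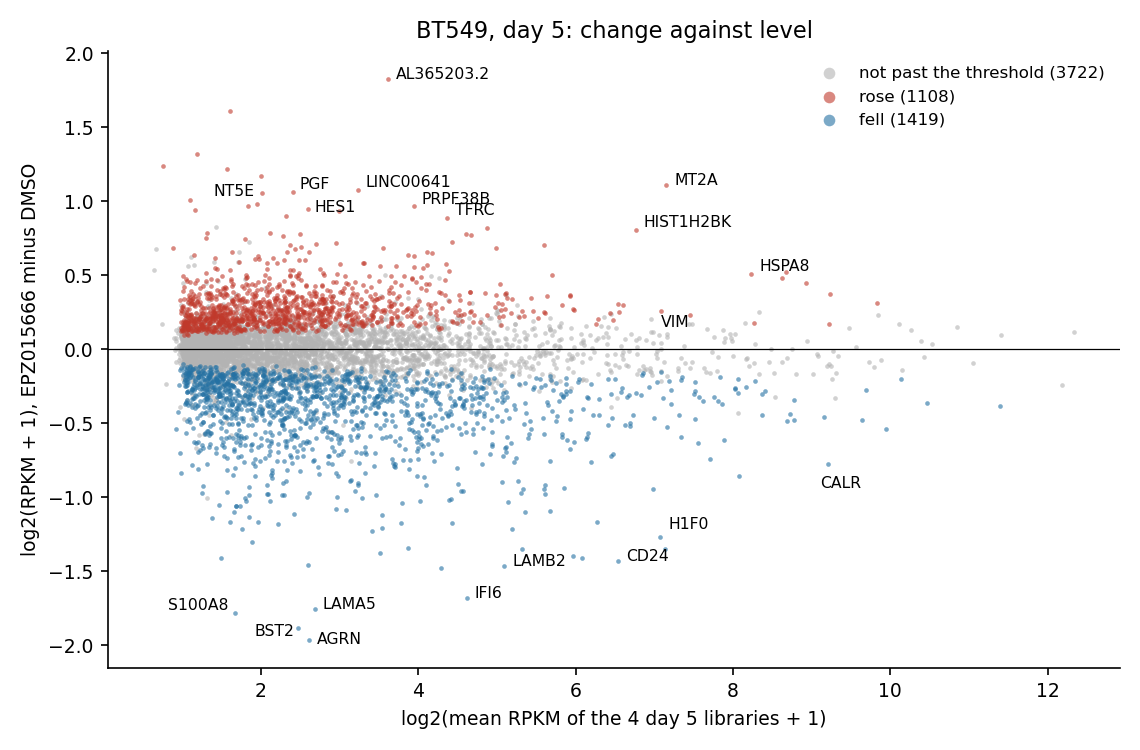
Each point is 1 of the 6249 tested genes, with the log2 of the mean RPKM + 1 of the 4 day 5 libraries on the x axis and the change in log2(RPKM + 1), EPZ015666 minus DMSO, on the y axis. Red points rose, blue points fell and grey points did not pass the threshold. The longest arm is downward, led by AGRN, BST2, S100A8 and LAMA5, while MT2A and HIST1H2BK are abundant transcripts that rose.

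Transcripts of the inhibited enzyme itself were higher. PRMT5 stood at 2.47 and 2.65 RPKM under DMSO and 3.52 and 3.23 RPKM under EPZ015666. It rose 1.32-fold (log2 change 0.30 ± 0.06 SE, adjusted p = 0.00601), although against DMSO of day 3 the fold was 1.17 (adjusted p = 0.0629). WDR77, the partner that holds PRMT5 in the methylosome, rose 1.23-fold (adjusted p = 0.0245), RIOK1 and COPRS, which bring substrates to the complex, rose 1.29-fold and 1.20-fold, and the third adaptor CLNS1A (pICln) had a fold of 0.937 and did not pass (adjusted p = 0.346). Of 15 tested genes of the methylosome and of snRNP assembly 6 rose and none fell, but the count was 1 without DMSO replicate B, and the WDR77 call was lost without any 1 of the 4 libraries (adjusted p = 0.0803 to 0.113). Calls of RIOK1 and COPRS were lost in 3 of these 4 fits (adjusted p up to 0.116 and 0.0935). Among 7 tested arginine methyltransferases and related enzymes, JMJD6, a hydroxylase also described as an arginine demethylase, rose 1.54-fold, and PRMT6, which marks histone H3, fell to 0.782-fold.

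Zinc handling held some of the clearest rises. MT2A encodes a metallothionein, a small cysteine-rich protein that binds zinc and copper, and lies on chromosome 16 from 56608199 to 56609497 in GRCh38. MT2A stood at 87.5 and 90.6 RPKM under DMSO and 191 and 195 RPKM under EPZ015666, more than double in both drug libraries. SLC30A1, the zinc exporter of the cell surface, went from 2.43 and 2.499 RPKM to 5.496 and 5.45 RPKM (log2 change 0.90 ± 0.07 SE, adjusted p = 1.17e-04). MT1E, a second metallothionein, went from 3.90 and 3.94 RPKM to 7.07 and 7.07 RPKM (log2 change 0.71 ± 0.06 SE, adjusted p = 2.14e-04). The groups stood well apart for all 3 genes. The importers SLC39A14 and SLC39A6 rose 1.31-fold and 1.28-fold, and SLC39A7, which releases zinc from the secretory pathway, fell to 0.868-fold, a call lost in each fit without 1 of the 4 libraries (adjusted p = 0.0779 to 0.197). In all, 5 of 6 tested genes of zinc handling rose and 1 fell (median change 0.53), and the same 5 to 1 split was seen against DMSO of day 3. Reads of MT2A may be shared with its processed copy MT2P1, which had a fold of 1.99. The call of MT2P1 was lost without DMSO replicate B or EPZ015666 replicate B.

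The stretch before the RefSeq start of MT2A is shown because metallothionein genes are switched on by the zinc sensor MTF1 through short metal response elements, searched here on both strands as TGCACNC or TGCGCNC. The sequence is from RefSeq on GRCh38.p14, 250 bases upstream of the start, chr16:56608334-56608583, plus strand, with the matches in capitals. The RefSeq start lies downstream of the first base of the gene span given above, so the stretch lies inside that span, as do those printed below for ISG15, HSP90B1, CRELD2, HSPA8 and CHORDC1.
MT2A: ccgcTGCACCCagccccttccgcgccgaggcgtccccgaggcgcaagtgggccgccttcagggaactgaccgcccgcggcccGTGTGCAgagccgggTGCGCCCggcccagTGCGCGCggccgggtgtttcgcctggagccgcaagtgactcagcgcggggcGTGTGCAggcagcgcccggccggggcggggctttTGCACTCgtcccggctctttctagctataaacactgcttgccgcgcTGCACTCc
MT2A held 7 matches. Of 35116 RefSeq promoters 24.8% held at least 1 and 6.48% at least 2. Tested genes with a single promoter entry numbered 3292, of which 18.3% rose and 22.5% fell. Among the 1198 of these with a match, 18.4% rose and 23.4% fell. Of the 4 zinc genes with a single promoter entry, MT2A, SLC30A1 and SLC39A6 held a match, and SLC39A7 did not.

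TFRC, the transferrin receptor through which cells take up iron, stood at 13.7 and 13.2 RPKM under DMSO and 25.7 and 25.8 RPKM under EPZ015666. FTL, the light chain of the iron store ferritin and 1 of the most abundant transcripts, stood at 919 and 942 RPKM and 662 and 677 RPKM, a fall to 0.720-fold (adjusted p = 6.05e-04). In both genes the groups were far apart. Against DMSO of day 3 FTL had a fold of 0.928 and did not pass. Of 11 tested iron genes TFRC and SLC25A37, the mitochondrial importer, rose, and FTL, HFE and FBXL5 fell, shares of 18.2% and 27.3% beside the 17.7% and 22.7% of all genes. The call of FBXL5 was lost without any 1 of the 4 libraries (adjusted p = 0.0765 to 0.248).

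AL365203.2, a long intergenic RNA on chromosome 10 from 32887255 to 32889311, had the largest log2 change of the genes that rose. It lies downstream of the integrin gene ITGB1 on the same strand, without overlap, and is named here after its values were seen. AL365203.2 stood at 3.96 and 4.79 RPKM under DMSO and 18.3 and 17.8 RPKM under EPZ015666, 4.12-fold higher (log2 change 1.83 ± 0.08 SE, adjusted p = 1.82e-05). LINC00641, another long RNA, went from 5.04 and 5.06 RPKM to 12.04 and 11.5 RPKM, 2.33-fold higher. Both rises were also present against DMSO of day 3, at 3.34-fold and 2.07-fold. NEAT1, the RNA scaffold of paraspeckles, fell from 5.68 and 5.21 RPKM to 3.48 and 3.14 RPKM (0.608-fold, adjusted p = 3.71e-04). Of 103 tested lincRNAs 24 rose and 11 fell, shares of 23.3% and 10.7% beside the 17.7% and 22.7% of all genes.

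NT5E, the surface enzyme CD73 that makes adenosine from AMP, lies on chromosome 6 from 85449584 to 85495791. NT5E stood at 1.62 and 1.62 RPKM under DMSO and 4.46 and 4.45 RPKM under EPZ015666 (log2 change 1.06 ± 0.04 SE, adjusted p = 1.82e-05). PGF, placental growth factor of the VEGF family, stood at 2.47 and 2.39 RPKM and 6.55 and 5.83 RPKM, 2.55-fold higher. Neither gene had overlapping groups, as was so for 79.1% of tested genes, and libraries A and B of NT5E were nearly equal within each group. AXL and MET, receptor tyrosine kinases tied to invasion, rose 1.57-fold and 1.55-fold, and SNAI2 (Slug), a repressor of epithelial genes, rose 1.52-fold. These belong to lists that went both ways. Of 16 tested genes of mesenchymal identity 3 rose (NT5E, AXL and SNAI2) and 7 fell, shares of 18.8% and 43.8%. Of 12 tested receptor tyrosine kinases 3 rose and 4 fell, 25% and 33.3%, with fewer falls without DMSO replicate B. The shares of all genes were 17.7% and 22.7%. TPBG, the surface antigen 5T4, rose 1.69-fold, and SRGN, the granule proteoglycan serglycin, rose 1.78-fold. FOSL1, the AP-1 subunit FRA1, had a fold of 1.78 (adjusted p = 6.41e-04) but of 1.05 against DMSO of day 3, which did not pass.

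Among 16 tested NF-kB targets and cytokines 6 rose and none fell. CXCL8, the neutrophil chemokine interleukin 8, stood at 0.996 and 0.674 RPKM under DMSO and 2.20 and 2.09 RPKM under EPZ015666, 2.57-fold higher at a low level, a call lost against DMSO of day 3 (adjusted p = 0.0807). ICAM1, the adhesion receptor for leukocytes, went from 2.67 and 2.34 RPKM to 4.33 and 4.40 RPKM, and the monocyte chemokine gene CCL2 from 3.88 and 3.60 RPKM to 6.67 and 6.32 RPKM. The drug libraries were the higher ones in each case. LIF rose 1.74-fold, but its call was lost without DMSO replicate B (adjusted p = 0.05137), and against DMSO of day 3 its fold was 0.874. In the Notch pathway the target HES1 stood at 3.37 and 2.88 RPKM and 6.72 and 7.20 RPKM, whereas the receptor NOTCH3 fell from 10.1 and 11.8 RPKM to 6.05 and 6.67 RPKM (0.579-fold, adjusted p = 0.00360), which did not pass against DMSO of day 3 (adjusted p = 0.0585).

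The splicing apparatus, which carries the best known substrates of PRMT5, showed rises in selected members. PRPF38B, a spliceosome component with a serine and arginine rich tail, stood at 9.60 and 9.19 RPKM under DMSO and 18.98 and 19.6 RPKM under EPZ015666. PRPF3, of the U4/U6 particle, went from 2.04 and 2.10 RPKM to 3.73 and 3.76 RPKM (1.81-fold, adjusted p = 7.90e-05). Both genes had folds of at least 1.5 against DMSO of day 3 as well, 2.04 and 1.57. The helicases DDX46 and DDX23 rose 1.78-fold and 1.44-fold, the kinase gene PRPF4B 1.64-fold, and SNRPB and SNRPC, which encode an Sm protein and a U1 protein, 1.305-fold and 1.33-fold. Of 54 tested Sm, LSm and core spliceosome genes 20 rose and 2 fell, SNRNP48 and DHX38 (median 0.11). Rises were fewer without EPZ015666 replicate A, and the fall of DHX38 was lost without DMSO replicate B or EPZ015666 replicate B. Gene-level values cannot show introns or exons, and no splicing measure was made.

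RNA-binding proteins of the hnRNP group split. HNRNPH1, which binds runs of G in exons, stood at 17.9 and 17.7 RPKM under DMSO and 31.7 and 30.6 RPKM under EPZ015666. TAF15, an RNA-binding protein of transcription and splicing, fell instead, from 1.51 and 1.42 RPKM to 0.778 and 0.776 RPKM (0.531-fold, adjusted p = 4.07e-04). HNRNPH3, a relative of HNRNPH1, rose 1.57-fold. In all 8 of 37 tested hnRNP and related genes rose and 5 fell, shares of 21.6% and 13.5% beside the 17.7% and 22.7% of all genes, and without DMSO replicate A 5 rose and 1 fell. The falls besides TAF15 were HNRNPR, HNRNPH2, HNRNPF and HNRNPA0. Calls of HNRNPH2 and HNRNPA0 were lost without any 1 of the 4 libraries. That of HNRNPR was lost without DMSO replicate A or EPZ015666 replicate A, and that of HNRNPF without DMSO replicate A. In the export and exon junction list 8 of 18 genes rose, led by the helicase DDX39A (1.53-fold), and THOC6 fell (4 rose without DMSO replicate B). Of 16 tested snoRNA host genes 7 rose and none fell (4 without DMSO replicate A), with SNHG1 at 1.51-fold.

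TIMELESS, a replication fork protein, fell from 2.45 and 2.51 RPKM to 1.25 and 1.25 RPKM. Both drug libraries stood at about the same level, and against DMSO of day 3 the fold was 0.423. MDM4, an inhibitor of p53 whose splicing depends on PRMT5, was below the filter of 1 RPKM, at 0.438 and 0.544 RPKM under DMSO and 0.829 and 0.834 RPKM under EPZ015666. On its recovered reads limma-voom gave a log2 change of 0.77 (adjusted p = 1.16e-05). Its DMSO libraries of day 3 stood higher than those of day 5, at 0.726 and 0.699 RPKM, and the fold against them was 1.17. At day 3 the fold of EPZ015666 over DMSO was 0.995. CDKN1A, the p53 target p21, did not pass (fold 0.931, adjusted p = 0.352), at 10.7 and 11.3 RPKM under DMSO and 10.2 and 10.3 RPKM under EPZ015666. DMSO of day 3 stood lower at 6.25 and 7.01 RPKM. The cell cycle inhibitors CDKN1B (p27) and CDKN1C (p57) fell to 0.594-fold and 0.520-fold. CCND1, cyclin D1, had a fold of 1.21 (adjusted p = 0.0449), a call lost without DMSO replicate A, DMSO replicate B or EPZ015666 replicate A (adjusted p = 0.1003 to 0.253) or either DMSO library of day 3 (0.0610 and 0.0609), and against DMSO of day 3 a fold of 0.826.

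Histone genes whose transcripts end in the usual stem-loop are scarce in poly(A) libraries, so their RPKM may not follow their total RNA. HIST1H2BK stood at 78.6 and 77.6 RPKM under DMSO and 143 and 132 RPKM under EPZ015666, and HIST2H2AA4, which has a near-identical copy, rose 1.65-fold. H1F0, the linker histone of resting cells, fell from 189 and 190.1 RPKM to 77.7 and 78.8 RPKM (log2 change -1.27 ± 0.06 SE, adjusted p = 2.93e-05). Of 24 tested histone genes and their close partners 7 rose and 4 fell, H1F0, H1FX, H2AFX and H2AFJ. The shares were 29.2% and 16.7% beside the 17.7% and 22.7% of all genes.

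Most tested genes of the basement membrane, the sheet of laminin, collagen IV and proteoglycan under epithelia, fell. AGRN, the proteoglycan agrin, stood at 8.39 and 9.05 RPKM under DMSO and 1.48 and 1.51 RPKM under EPZ015666. LAMA5, a laminin alpha chain, stood at 8.50 and 9.34 RPKM and 1.94 and 1.92 RPKM. COL4A5, a collagen IV chain, went from 1.92 and 1.87 RPKM to 0.847 and 0.846 RPKM (0.447-fold, adjusted p = 4.75e-05). The vehicle libraries were at least 2 times the drug libraries in each of the 3 genes. SPARC, a collagen-binding matrix protein, fell to 0.659-fold, and LAMB1, the tenth member tested, was at 0.932-fold and did not pass. Of 10 tested basement membrane genes 9 fell (median -0.43), 4 of them at least 2-fold. Vehicle cultures had higher levels of 9 of the 10 at day 5 than at day 3 (median 0.30), and against DMSO of day 3 the drug cultures were lower in 5 (median -0.12).

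Most receptors for these proteins that passed the filter of 1 RPKM fell. On recovered reads limma-voom tested more of these receptors. There 9 fell, 3 rose and the others did not pass, so that most did not fall. BCAM, a laminin receptor on chromosome 19 from 44809059 to 44821421, stood at 2.69 and 2.76 RPKM under DMSO and 0.776 and 0.819 RPKM under EPZ015666 (log2 change -1.05 ± 0.05 SE, adjusted p = 1.97e-05). ITGA3, the integrin alpha chain that pairs with ITGB1 to bind laminin, went from 6.76 and 7.12 RPKM to 3.61 and 3.81 RPKM. Both genes also passed against DMSO of day 3, at 0.571-fold and 0.593-fold. Of 9 tested matrix receptors 7 fell and none rose (4 without DMSO replicate A), with SDC1, the proteoglycan syndecan 1, at 0.720-fold and the tetraspanin CD151 at 0.727-fold.

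Interstitial collagens and the enzymes that mature them mostly fell as well. COL3A1, a fibrillar collagen, stood at 50.05 and 50.5 RPKM under DMSO and 20.6 and 21.6 RPKM under EPZ015666. COL12A1 went from 8.95 and 8.89 RPKM to 4.495 and 4.63 RPKM, and COL5A1 from 10.2 and 10.5 RPKM to 5.08 and 5.16 RPKM. Drug and vehicle libraries did not meet in these genes, nor in 79.1% of all tested genes. PLOD3, which hydroxylates collagen lysines, stood at 46.7 and 46.4 RPKM under DMSO and 22.2 and 22.3 RPKM under EPZ015666, and its relative PLOD1 fell to 0.501-fold. Of 22 tested members 16 fell and none rose (median -0.42). In vehicle cultures 17 of the 22 were higher at day 5 than at day 3, and against DMSO of day 3 the drug cultures of day 5 were lower in 12 and higher in 2 (median -0.19). The metalloprotease ADAM15 fell to 0.386-fold, the elastic fibre protein EFEMP2 to 0.363-fold and the matrix protein SPON2 to 0.424-fold, while PLAUR, the urokinase receptor, rose 1.497-fold.

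**Figure D2:**
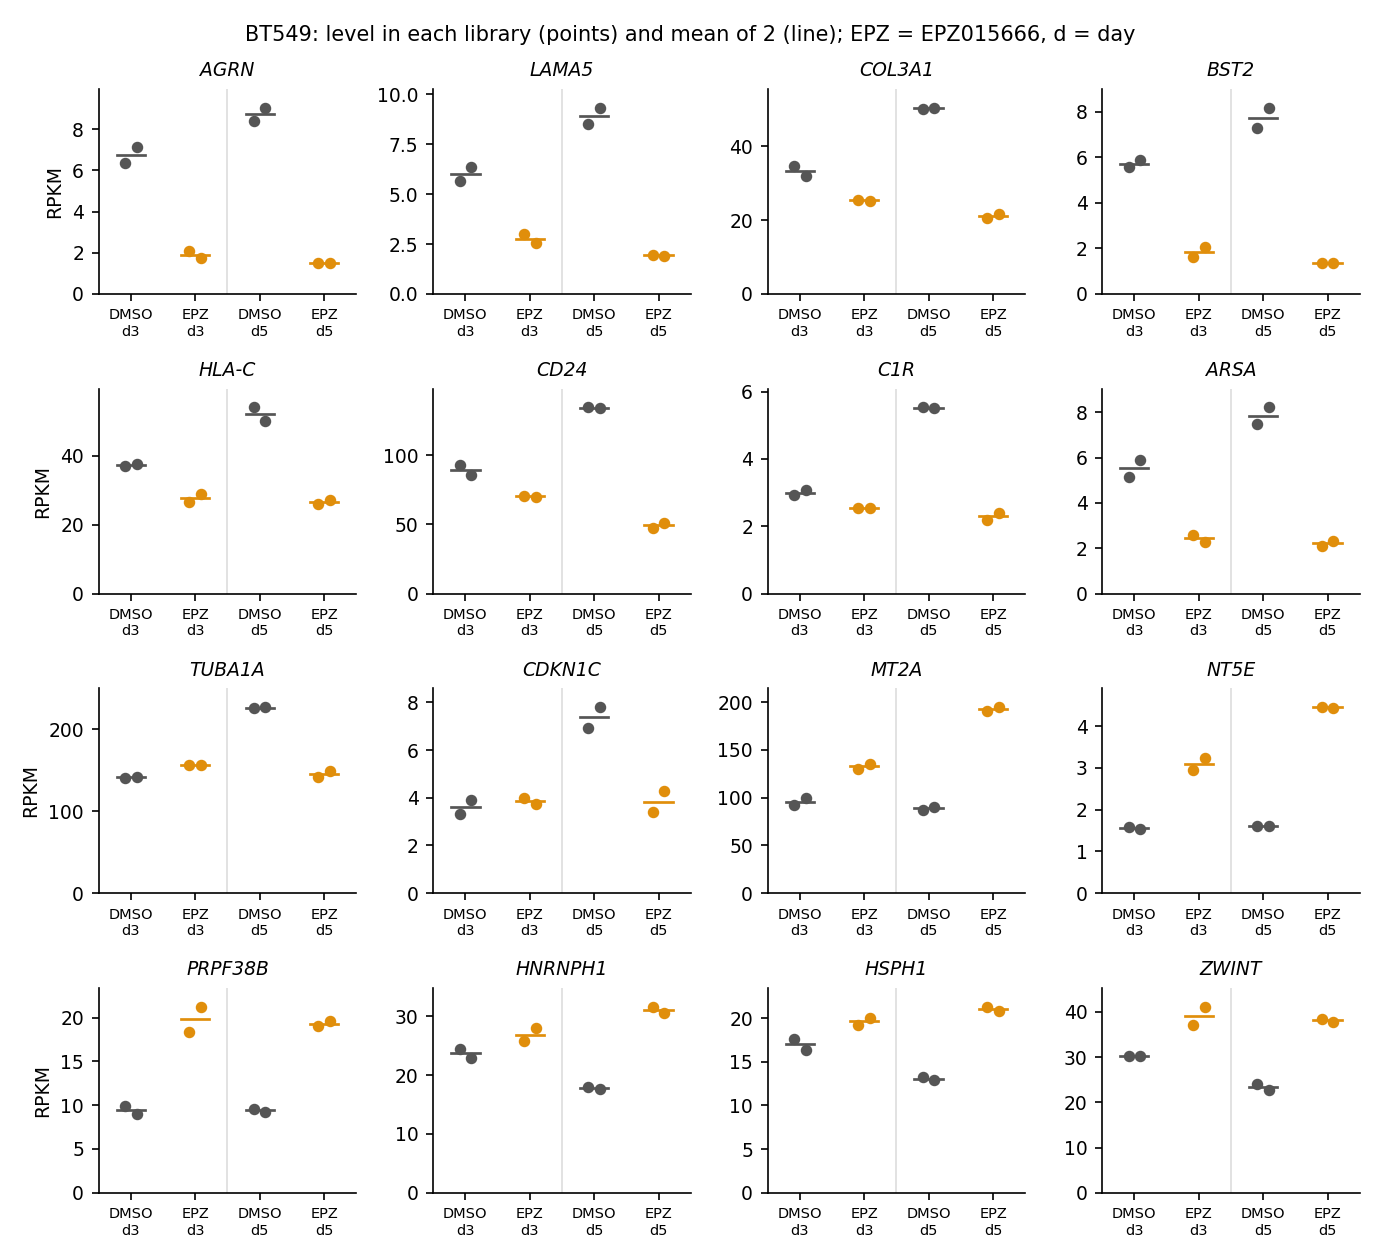
RPKM of 16 genes in each of the 8 BT549 libraries, with points for libraries A and B, a line for their mean and a y axis from 0 in each panel. DMSO is grey and EPZ015666 (5 µM) orange, at day 3 (d3) and day 5 (d5). In COL3A1, CD24, C1R, TUBA1A and CDKN1C the vehicle libraries of day 5 stand above those of day 3, while the vehicle libraries of MT2A, NT5E and PRPF38B lie at about the same height on both days.

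Some single genes for surface and secreted proteins also had large falls. CD24, a small glycoprotein anchored by lipid at the surface, lies on chromosome 6 from 106969831 to 106975627 and stood at 135 and 134 RPKM under DMSO and 47.6 and 51.0 RPKM under EPZ015666. MUC1, a membrane mucin, stood at 13.7 and 16.8 RPKM and 5.59 and 6.43 RPKM (0.394-fold, adjusted p = 0.00204), with the vehicle libraries spread more widely than for most genes. PLTP, which moves phospholipids between lipoproteins, fell from 27.5 and 28.1 RPKM to 9.06 and 9.64 RPKM. MDK, the heparin-binding growth factor midkine, was 1 of the most abundant of these and fell from 202 and 200.4 RPKM to 77.1 and 79.2 RPKM. ANPEP, the surface peptidase CD13, went from 56.0 and 56.3 RPKM to 22.2 and 20.8 RPKM. The groups of all 5 genes were separate, which was a condition of naming them. Of 12 tested S100 proteins and annexins, calcium-binding proteins, 8 fell and none rose. S100A8 had the lowest fold of all tested genes, from 4.11 and 3.78 RPKM to 0.492 and 0.385 RPKM (0.111-fold, adjusted p = 1.13e-04). S100A4 and S100A6 fell to 0.556-fold and 0.604-fold, but S100A6 had a fold of 0.910 against DMSO of day 3 and did not pass.

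Most tested interferon-stimulated genes fell, and the labels name no added interferon. IFI6, an interferon-induced mitochondrial protein, stood at 36.3 and 36.4 RPKM under DMSO and 11.1 and 10.3 RPKM under EPZ015666. BST2, the tetherin that holds budding viruses, stood at 7.29 and 8.18 RPKM and 1.35 and 1.37 RPKM. ISG15, a ubiquitin-like protein, went from 8.81 and 8.73 RPKM to 4.69 and 5.23 RPKM. The drug libraries of IFI6 and BST2 lay far below the vehicle libraries, and those of ISG15 nearer to them. IFI35 fell to 0.567-fold and PARP9, an ADP-ribosyltransferase of the interferon response, to 0.648-fold. Of 17 tested members 12 fell and none rose (median -0.36), and 11 were lower against DMSO of day 3 (median -0.23). TMEM173, the DNA sensing adaptor STING, fell to 0.473-fold.

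The interferon-stimulated response element, through which interferon signalling acts on its target genes, was searched on both strands as GAAA, any 2 bases and GAAA, and the matches are shown in capitals because 3 of the falling genes hold several. Each stretch is from RefSeq on GRCh38.p14, 5′ to 3′ on the strand of the gene: chr1:27672256-27672368, minus strand for IFI6, chr19:17405725-17405780, minus strand for BST2 and chr1:1013364-1013419, plus strand for ISG15. The matches of BST2 overlap each other, as do those of ISG15.
IFI6: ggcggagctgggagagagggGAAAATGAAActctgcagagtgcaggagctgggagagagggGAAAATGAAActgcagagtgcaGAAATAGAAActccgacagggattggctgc
BST2: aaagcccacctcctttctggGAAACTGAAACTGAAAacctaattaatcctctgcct
ISG15: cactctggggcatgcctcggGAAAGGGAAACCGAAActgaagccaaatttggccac
IFI6 held 3 matches, BST2 and ISG15 2 each. Of 35116 RefSeq promoters 3.02% held at least 1 and 0.225% at least 2. Among the 78 tested genes with at least 1 match 14 rose and 15 fell, 17.9% and 19.2%. Of all 3292 tested genes with a single promoter entry 18.3% rose and 22.5% fell. Among the 9 with at least 2 matches, none rose and 4 fell, and the 3 genes shown are among these 4. Of 11 interferon-stimulated genes with a single promoter entry, 7 held a match and 4 of these fell, while 3 of the other 4 fell.

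Most tested genes of class I antigen presentation, the display of peptides to T cells, fell. HLA-C, a class I heavy chain, stood at 54.2 and 50.2 RPKM under DMSO and 26.1 and 27.1 RPKM under EPZ015666. HLA-B fell to 0.526-fold, and PSMB8, a subunit of the immunoproteasome, to 0.624-fold (adjusted p = 1.45e-04). Reads of class I heavy chain genes can be shared between them. In all 9 of 12 tested members fell and none rose (median -0.50), and 8 were lower against DMSO of day 3 (median -0.25). Most tested complement genes fell. CLU, the chaperone clusterin that restrains the terminal pathway, stood at 98.2 and 97.2 RPKM and 35.03 and 37.3 RPKM. C1R, the protease that starts the classical pathway, stood at 5.53 and 5.51 RPKM and 2.20 and 2.40 RPKM, and its relative C1RL fell to 0.345-fold. CFD, the protease factor D, fell from 9.22 and 9.81 RPKM to 3.88 and 4.06 RPKM. The vehicle level of C1R was 2.92 and 3.08 RPKM at day 3, so that the fold against that vehicle was 0.766. Of 5 tested complement genes these 4 fell (median -0.98, and -0.35 against DMSO of day 3). On recovered reads limma-voom tested more complement genes, of which 5 fell, 2 rose and the others did not pass (median -0.26).

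Most tested lysosomal genes fell. ARSA, a lysosomal sulfatase for sphingolipids, stood at 7.47 and 8.23 RPKM under DMSO and 2.12 and 2.31 RPKM under EPZ015666 (log2 change -1.46 ± 0.08 SE, adjusted p = 4.21e-05). The protease gene CTSA went from 63.03 and 61.99 RPKM to 31.4 and 32.7 RPKM. TPP1 and CTSF, also proteases, fell to 0.449-fold and 0.479-fold. Of 33 tested members 22 fell and 1 rose, the cholesterol exporter NPC1 (1.43-fold, median of the list -0.25). Vehicle cultures had higher levels of 21 of the 33 at day 5 than at day 3, and against DMSO of day 3 the drug cultures were lower in 10 and higher in 5. CTSB, 1 of the most abundant, was lower against DMSO of day 5 (0.878-fold) and higher against DMSO of day 3 (1.34-fold), and the first call was lost without any 1 of the 4 libraries (adjusted p = 0.107 to 0.165).

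Most tested chaperone and degradation genes of the endoplasmic reticulum fell. CALR, the calcium-binding chaperone calreticulin, stood at 748 and 739 RPKM under DMSO and 427 and 439.8 RPKM under EPZ015666. FKBP10, which helps collagen fold, went from 49.2 and 48.6 RPKM to 25.9 and 26.0 RPKM. HYOU1 and CRELD2, also of the endoplasmic reticulum, fell to 0.632-fold and 0.600-fold. EDEM1, which sends misfolded glycoproteins to degradation, rose 1.47-fold. Of 25 tested chaperone and degradation genes 16 fell and EDEM1, DERL2 and the oxidase gene ERO1A rose, DERL2 by a call lost without any 1 of the 4 libraries (adjusted p = 0.0721 to 0.109, median of the list -0.34). Of 24 tested N-glycosylation genes 10 fell and 2 rose, ALG2 and ALG8 (6 and 1 without DMSO replicate B). Of 44 tested translocon and vesicle coat genes 9 rose and 5 fell, and both counts were lower without DMSO replicate B. These were shares of 20.5% and 11.4% beside the 17.7% and 22.7% of all genes. The N-glycosylation genes were led by MAN1B1, a mannosidase that trims N-glycans, with 18.0 and 18.0 RPKM against 7.30 and 7.58 RPKM. The oligosaccharyltransferase gene RPN2 (0.529-fold) came next in that list. In the synthesis of GPI anchors, the lipid anchors of proteins such as CD24, 4 of 7 tested genes fell: GPAA1, PIGQ, PIGT and PIGV. GPAA1, which attaches the anchor, stood at 86.3 and 93.3 RPKM and 33.6 and 33.3 RPKM, while PIGA and PIGG rose. The call of PIGG was lost without any 1 of the 4 libraries. That of PIGA was lost without DMSO replicate B or EPZ015666 replicate A.

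The endoplasmic reticulum stress element, bound by ATF6 with NF-Y, was searched on both strands as CCAAT, any 9 bases and CCACG, and 4 chaperone genes that hold it are shown with the matches in capitals. The stretches are from RefSeq on GRCh38.p14, 5′ to 3′ on the strand of the gene: chr19:12938364-12938422, plus strand for CALR, chr22:49918534-49918592, plus strand for CRELD2, chr9:125241371-125241429, minus strand for HSPA5 and chr12:103930196-103930359, plus strand for HSP90B1. HSPA5 and HSP90B1 are named for the element, after their values were seen.
CALR: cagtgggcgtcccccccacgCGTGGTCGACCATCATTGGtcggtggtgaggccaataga
CRELD2: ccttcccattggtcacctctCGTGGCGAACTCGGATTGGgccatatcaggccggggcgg
HSPA5: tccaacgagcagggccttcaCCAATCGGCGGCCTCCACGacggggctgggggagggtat
HSP90B1: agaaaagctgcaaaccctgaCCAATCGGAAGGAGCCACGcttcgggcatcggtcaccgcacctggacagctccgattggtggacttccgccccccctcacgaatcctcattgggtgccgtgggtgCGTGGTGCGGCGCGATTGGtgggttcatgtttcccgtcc
All 4 fell, HSP90B1 (GRP94) to 0.608-fold and HSPA5 (BiP) to 0.862-fold, the second a call lost in each fit without 1 of the 4 libraries (adjusted p = 0.0771 to 0.197). The element occurred in 0.074% of 35116 RefSeq promoters. Of the 7 tested genes with it 5 fell and none rose, and the 4 genes shown are among these 5. Of all 3292 tested genes with a single promoter entry 22.5% fell and 18.3% rose. In the chaperone list 7 of 15 members with a single promoter entry and no match fell and 3 rose.

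ACADVL, which starts the oxidation of long fatty acids, stood at 54.8 and 54.99 RPKM under DMSO and 26.1 and 24.1 RPKM under EPZ015666. UCP2, an uncoupling protein, fell to 0.537-fold, the dehydrogenase gene IDH2 to 0.499-fold and the ATP synthase gene ATP5F1D to 0.498-fold. Of 14 tested fatty acid oxidation genes 7 fell and none rose (median -0.12). The other nuclear lists lay near or below the shares of all genes (17.7% rose and 22.7% fell). Of 27 nuclear genes of complex I 7 fell and 1 rose (25.9% and 3.70%), as did 7 and 1 of 27 of complexes III, IV and V. Both counts of falls were lower without DMSO replicate A. Of 21 tested genes of pyruvate dehydrogenase and the citric acid cycle 4 rose and 4 fell, and both counts were lower without DMSO replicate A. Of 48 mitochondrial ribosomal protein genes 4 rose and 5 fell (1 rise without DMSO replicate B and 1 fall without DMSO replicate A). Of 13 genes encoded in mitochondrial DNA 5 rose and none fell (3 without DMSO replicate A), all 5 ND subunits of respiratory complex I, and 8 did not pass. MT-ND6 went from 323 and 344 RPKM to 486 and 473 RPKM. MT-ND1, MT-ND2, MT-ND3 and MT-ND5 were the others, at 1.24-fold to 1.39-fold. The call of MT-ND3 was lost without any 1 of the 4 libraries. That of MT-ND1 was lost without DMSO replicate A or EPZ015666 replicate A. The mitochondrial share of recovered reads was 1.31% and 1.42% in the DMSO libraries and 1.61% and 1.52% in the EPZ015666 libraries.

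SEMA3F, a secreted semaphorin, stood at 6.17 and 6.29 RPKM under DMSO and 2.99 and 3.20 RPKM under EPZ015666, and the semaphorin receptor PLXNB2 fell to 0.523-fold. Of 10 tested semaphorins, plexins and ephrins 6 fell and NRP1 rose (median -0.40). The rise of NRP1 was lost without DMSO replicate A, EPZ015666 replicate A or EPZ015666 replicate B. TUBA1A, an alpha tubulin, stood at 226 and 228 RPKM and 142 and 149.8 RPKM, a fall to 0.643-fold, with reads that other alpha tubulins may share. Its DMSO libraries of day 3 stood at 140.5 and 142 RPKM, level with the drug libraries of day 5 (fold 1.03).

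In mitosis 34 of 50 tested kinase, spindle and cytokinesis genes rose and 1 fell (median 0.21), with 19 rises without EPZ015666 replicate B. AURKA, a spindle kinase, stood at 11.8 and 11.6 RPKM under DMSO and 17.1 and 16.2 RPKM under EPZ015666. ECT2, which directs cytokinesis, went from 2.65 and 2.60 RPKM to 3.72 and 3.80 RPKM. The phosphatase gene CDC25B was the single fall, from 45.6 and 48.1 RPKM to 32.8 and 32.5 RPKM, and did not pass against DMSO of day 3 (adjusted p = 0.0612). In the kinetochore 13 of 23 rose and 3 fell (CENPH, CENPB and SPC24), with 7 rises without DMSO replicate B and 1 fall without EPZ015666 replicate A. ZWINT, a kinetochore scaffold, stood at 23.9 and 22.7 RPKM and 38.4 and 37.8 RPKM, and SKA1, which couples it to microtubules, rose 1.61-fold. Of 28 tested replication genes POLE, POLE3, ORC6, CDC6 and MCM3 rose and POLD1 and MCM4 fell, shares of 17.9% and 7.14% beside the 17.7% and 22.7% of all genes, with 3 rises without DMSO replicate B and 1 fall without EPZ015666 replicate B. The call of POLE3 was lost without any 1 of the 4 libraries (adjusted p = 0.116 to 0.145). Against DMSO of day 3 none of the 28 was higher and 9 were lower. The cell cycle homology region, an element of genes of late cell cycle phases, was searched on both strands as TTTGAA and occurred in 13.3% of 35116 RefSeq promoters. Of the 246 tested genes with it 25.6% rose and 14.2% fell, beside 18.3% and 22.5% of all 3292 tested genes with a single promoter entry. Of 34 mitotic genes with a single promoter entry 16 held it, of which 14 rose, and 13 of the other 18 rose.

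Of 45 tested ribosome biogenesis genes 26 rose and none fell (median 0.18), with 10 rises without EPZ015666 replicate A. NPM1, the nucleolar chaperone nucleophosmin, stood at 16.2 and 15.7 RPKM under DMSO and 22.04 and 22.8 RPKM under EPZ015666. NOL9, a kinase of ribosomal RNA processing, went from 1.42 and 1.41 RPKM to 2.18 and 2.16 RPKM (1.53-fold, adjusted p = 2.50e-04), a call lost against DMSO of day 3 (adjusted p = 0.147). Of 68 tested cytosolic ribosomal protein genes 18 fell and 3 rose (26.5% and 4.41%, beside 22.7% and 17.7% of all genes). Against DMSO of day 3, 4 genes of the large subunit were higher and 2 lower (median 0.05). In the small subunit 5 were then higher and 0 lower (median 0.10). In DMSO itself 10 large and 9 small subunit genes were higher at day 5 than at day 3. The rises against DMSO of day 5 were RPS27, RPL21 and RPL7, which all have processed copies, as do NPM1 and HSPA8. The call of RPL7 was lost without any 1 of the 4 libraries. That of RPL21 was lost without DMSO replicate A, DMSO replicate B or EPZ015666 replicate B. The falls in the small subunit were 0 without DMSO replicate A, and those in the large subunit 3 without DMSO replicate B. Of 32 tested nuclear pore and import genes 18 rose and IPO9 fell (5 rises without DMSO replicate B), with the Ran activator RANGAP1 at 1.38-fold, which did not pass against DMSO of day 3 (adjusted p = 0.449). Of 17 tested aminoacyl-tRNA synthetases, which load amino acids onto tRNA, 8 rose, with IARS and TARS at 1.43-fold and 1.39-fold, and QARS fell to 0.723-fold (3 rises without EPZ015666 replicate A). Of 31 proteasome genes 7 rose and none fell, 22.6% beside the 17.7% of all genes (2 without EPZ015666 replicate B).

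Most tested heat shock and chaperonin genes of the cytosol rose. HSPA8, the constitutive HSP70, stood at 252 and 242 RPKM under DMSO and 356 and 349 RPKM under EPZ015666. HSPH1, an exchange factor for HSP70, went from 13.2 and 12.9 RPKM to 21.3 and 20.9 RPKM, and CHORDC1, a partner of HSP90, from 1.03 and 1.01 RPKM to 1.67 and 1.55 RPKM. The groups were apart in all 3, as in 79.1% of tested genes, but CHORDC1 did not pass against DMSO of day 3 (adjusted p = 0.0954). Of 33 tested heat shock and chaperonin genes 20 rose and 2 fell, HSPB1 (0.716-fold) and BAG3 (0.845-fold) (median 0.20). Rises were fewer without EPZ015666 replicate A. The call of BAG3 was lost without any 1 of the 4 libraries. That of HSPB1 was lost without DMSO replicate B, EPZ015666 replicate A or EPZ015666 replicate B. Against DMSO of day 3, 14 of the 33 were higher and 2 lower (median 0.14). The heat shock element, bound by HSF1, was searched on both strands as GAA, any 2 bases, TTC, any 2 bases and GAA, and both genes with several matches are shown from RefSeq on GRCh38.p14 with the matches in capitals, 5′ to 3′ on the strand of the gene: chr11:123062159-123062386, minus strand for HSPA8 and chr11:90223067-90223129, minus strand for CHORDC1. The matches of CHORDC1 overlap each other.
HSPA8: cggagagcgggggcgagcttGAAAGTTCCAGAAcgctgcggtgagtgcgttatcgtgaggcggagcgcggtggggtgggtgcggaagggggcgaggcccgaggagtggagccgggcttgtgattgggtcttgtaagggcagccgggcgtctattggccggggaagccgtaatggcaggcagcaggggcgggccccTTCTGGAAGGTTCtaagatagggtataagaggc
CHORDC1: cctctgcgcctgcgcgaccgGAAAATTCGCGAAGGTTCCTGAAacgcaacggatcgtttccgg
The element occurred in 0.441% of 35116 RefSeq promoters. Of the 11 tested genes with it 4 rose and 1 fell, 36.4% and 9.09%, and both genes shown are among the 4. Of all 3292 tested genes with a single promoter entry 18.3% rose and 22.5% fell. Of 21 heat shock genes with a single promoter entry, 3 held it and rose, HSPA8, CHORDC1 and DNAJB6, and among the other 18, 9 rose and 2 fell.

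Sterol genes differed from step to step. Of 24 tested genes of cholesterol synthesis and uptake 12 rose and 6 fell (median 0.14), or 7 and 2 without DMSO replicate B. MVK, an early kinase of the pathway, went from 1.01 and 1.04 RPKM to 1.67 and 1.49 RPKM. TM7SF2, a sterol reductase, fell from 3.11 and 3.59 RPKM to 1.12 and 1.06 RPKM (0.325-fold, adjusted p = 5.87e-04).

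**Figure D3:**
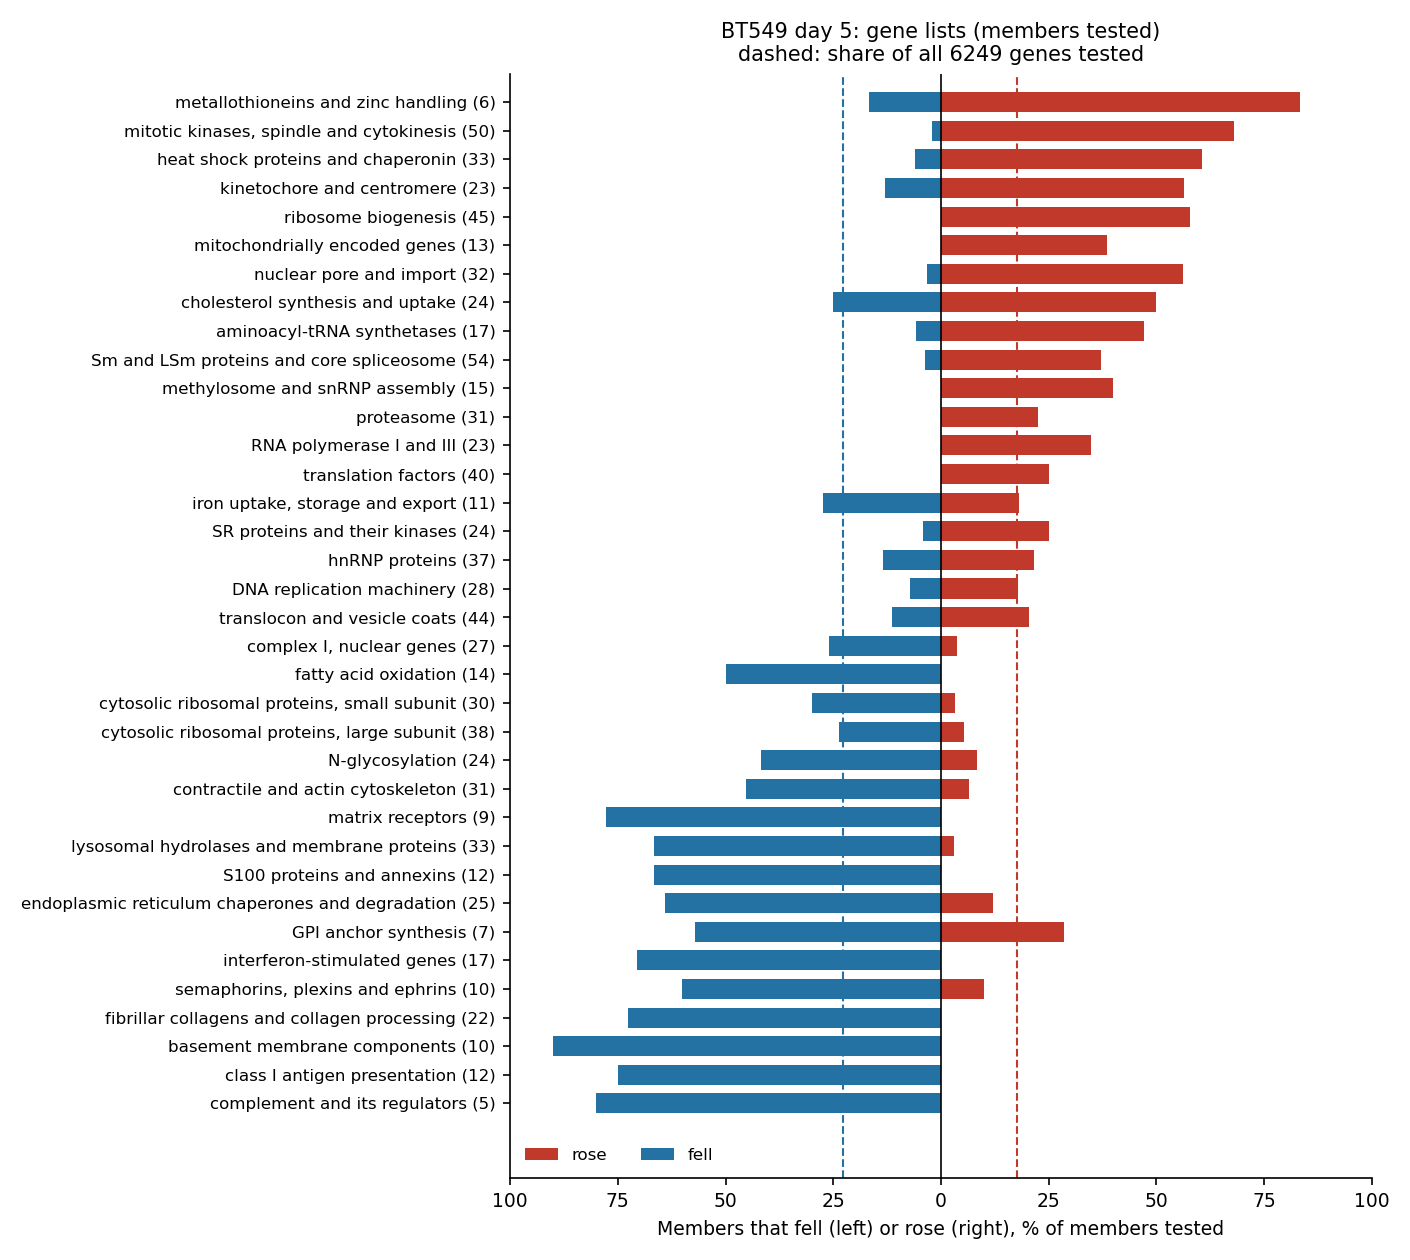
Bars give the share of tested members that rose (red, right) or fell (blue, left) for 36 of the 75 gene lists, with the number tested in brackets, ordered by median change. Dashed lines mark the 17.7% and 22.7% of all 6249 genes. Zinc, mitotic, heat shock and ribosome biogenesis genes pass the red line, and basement membrane, class I, collagen, lysosomal and complement genes pass the blue one.

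The vehicle cultures themselves changed between the days. From day 3 to day 5, 1044 genes differed in DMSO (16.7% of 6249), 668 higher (10.7%) and 376 lower (6.02%), while 53 differed in EPZ015666 (0.848%), 24 of them higher (0.384%) and 29 lower (0.464%). These counts depend on single libraries: the first was 165 without day 5 DMSO replicate A and 158 without replicate B, and the second was 0 without either day 5 EPZ015666 library. The drug effect at day 5 differed from that at day 3 in 373 genes (5.97%), 95 with a higher and 278 with a lower log2 change at day 5. Leaving out 1 day 5 library brought that count to 0 (drug A), 38 (drug B), 18 (vehicle A) or 22 (vehicle B). Leaving out 1 day 3 library brought it to 195 (drug A), 136 (drug B), 106 (vehicle A) or 609 (vehicle B). EPZ015666 day 3 replicate A also stood apart in the share of reads on ribosomal RNA loci, 1.39% beside 0.236% to 0.298% in the other BT549 libraries, and the count of 195 is that without it. Cell density and medium were not given in the sources used here.

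At day 3, 576 genes rose (9.22%) and 674 fell (10.8%). Of the genes that rose at day 5 33.0% had risen at day 3, and of those that fell 38.2% had fallen, while 63.5% of the rises and 80.4% of the falls of day 3 were called again at day 5. Opposite calls were rare, 8 and 14 genes. The 4 drug libraries of MT2A stood at 129.8 and 135 RPKM at day 3 and 191 and 195 RPKM at day 5, above vehicle libraries of 92.5 and 99.1 RPKM and 87.5 and 90.6 RPKM. Its effect was larger at day 5 by 0.64 ± 0.08 (SE, adjusted p = 0.0139), with the drug libraries higher at day 5 (adjusted p = 0.0171). NT5E likewise went from 2.96 and 3.23 RPKM to 4.46 and 4.45 RPKM in the drug libraries while its vehicle libraries stayed between 1.53 and 1.62 RPKM. Its drug libraries also differed between the days (adjusted p = 0.0178).

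CD24 showed movement on both sides. Its vehicle libraries went from 93.2 and 85.5 RPKM at day 3 to 135 and 134 RPKM at day 5, and its drug libraries from 70.4 and 70.0 RPKM to 47.6 and 51.0 RPKM. The drug effect was lower at day 5 by -1.09 ± 0.08 (SE, adjusted p = 0.00619). For CDKN1C the drug libraries stood at 3.996 and 3.75 RPKM at day 3 and 3.41 and 4.27 RPKM at day 5, beside 3.33 and 3.90 RPKM and 6.95 and 7.81 RPKM in DMSO, and the difference of effects was -0.88 ± 0.14 (SE, adjusted p = 0.0266). Its drug libraries of day 5 overlapped those of day 3, while its vehicle libraries did not. In SLC30A1 the vehicle libraries stood at 4.22 and 3.70 RPKM at day 3 and 2.43 and 2.499 RPKM at day 5, and the drug libraries at 4.92 and 4.41 RPKM and 5.496 and 5.45 RPKM. The vehicle fell and the drug libraries did not pass between the days (adjusted p = 0.00584 and 0.234).

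Against DMSO of day 3, 859 genes were higher in the drug libraries of day 5 (13.7%) and 1042 lower (16.7%). Of the 1108 rises 549 (49.5%) and of the 1419 falls 794 (56.0%) were called against both vehicles, which share the drug libraries. Genes at least 2-fold lower numbered 47 in place of 114. Of 181 tested genes named here, 34 lost their call against DMSO of day 3, namely CDC25B, CDC6, CDKN1C, CENPB, CHORDC1, CXCL8, DERL2, FBXL5, FOSL1, FTL, H2AFJ, HNRNPH2, HSPA5, HSPB1, LIF, MCM3, MT2P1, NOL9, NOTCH3, NRP1, ORC6, P4HA1, PIGA, PIGG, POLE, POLE3, PRMT5, RANGAP1, RIOK1, RPL21, S100A6, TARS, TUBA1A and WDR77. The 2 that gained one were CDKN1A and VIM. Against DMSO of day 3 the lists of interferon-stimulated, class I, collagen and zinc genes kept the sign of their medians, at -0.23, -0.25, -0.19 and 0.33. The median of ribosome biogenesis went from 0.18 to 0.05, with 7 members higher and 5 lower, and that of mitosis from 0.21 to 0.09, with 11 higher and 2 lower. That of the kinetochore went from 0.19 to 0.01, with 5 higher and 3 lower. For nuclear pore and import genes it went from 0.14 to 0.04, with 4 higher and 1 lower. In DMSO itself 19 of the 45 ribosome biogenesis genes and 17 of the 50 mitotic genes were lower at day 5 than at day 3. So were 9 of the 23 kinetochore genes and 7 of the 32 nuclear pore and import genes. Of 20 tested hypoxia targets 8 rose and CA9, PDK1 and P4HA1 fell against DMSO of day 5 (4 rose without EPZ015666 replicate A), and 14 were higher and PDK1 lower against DMSO of day 3. CA9, a carbonic anhydrase, had a log2 change of 0.27 against that vehicle, opposite in sign to its fall.

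**Figure D4:**
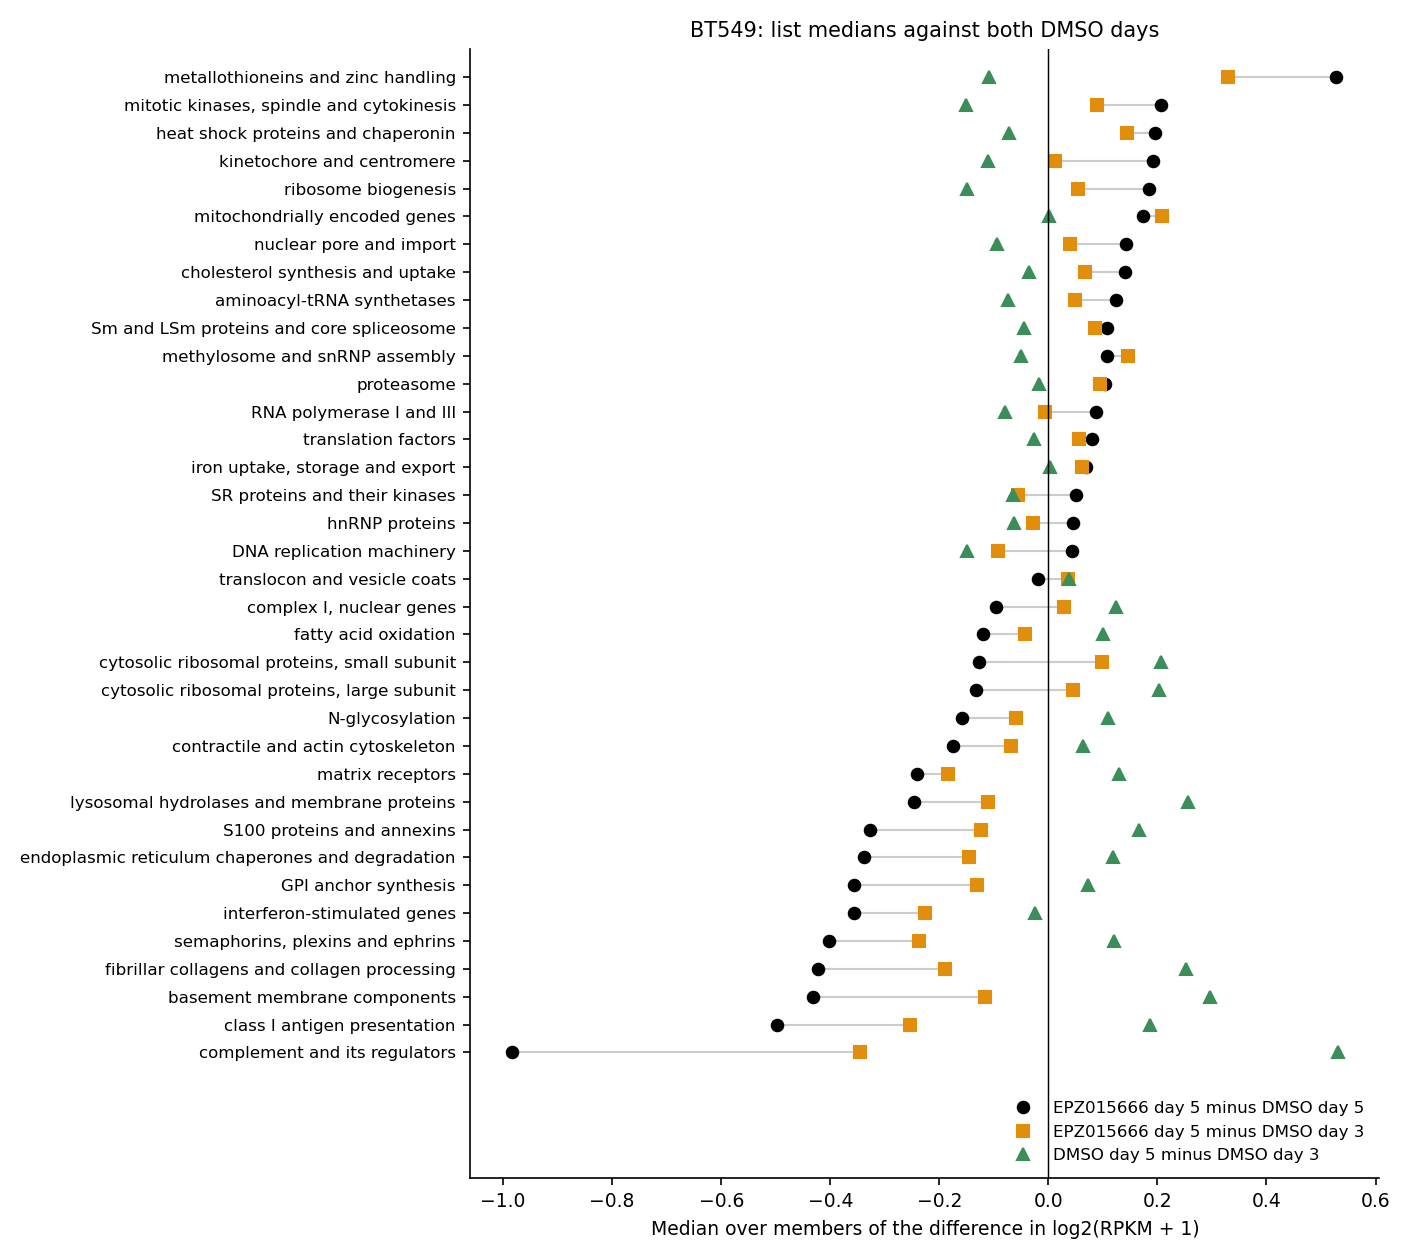
Points give the median over tested members of the difference in log2(RPKM + 1) for the 36 lists of the plot of list shares, for EPZ015666 day 5 minus DMSO day 5 (black), EPZ015666 day 5 minus DMSO day 3 (orange) and DMSO day 5 minus DMSO day 3 (green). For basement membrane genes the medians are -0.43, -0.12 and 0.30, and for interferon-stimulated genes -0.36, -0.23 and -0.03.

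The drug effect of BT549 at day 5 was set against the mean effect of MDAMB436, OVCAR8 and COV362 in 1 fit of the 16 day 5 libraries. Of 4702 genes tested in all lines 1788 differed (38.0%), 872 with a higher effect in BT549 (18.5%) and 916 with a lower one (19.5%). Without 1 library the count ran from 1299 to 1827. Among these genes 860 rose in BT549 (18.3%), of which 186 (21.6%) rose in each of the other 3 lines, where 6.66% of all 4702 did. In BT549 1023 fell (21.8%), of which 403 (39.4%) fell in each of the others, where 11.9% of all did.

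CD24 fell to 0.367-fold in BT549 and 0.464-fold in OVCAR8, and had folds of 1.04 and 1.06 in MDAMB436 and COV362 (difference -1.10 ± 0.06 SE, adjusted p = 4.85e-07). CTGF, a matricellular target of YAP, fell to 0.666-fold in BT549 and had folds of 0.977 in MDAMB436, 1.91 in OVCAR8 and 2.29 in COV362. MT2A was 2.17-fold higher in BT549, with folds of 1.25, 0.870 and 1.33 in the same order. BT549 had the highest MT2A fold of the 4 lines and the lowest CTGF fold, and both differences passed (adjusted p = 2.68e-06 and 3.07e-07). NT5E had folds of 2.75 in BT549 and 1.66, 1.09 and 1.39 in the others (difference 0.75 ± 0.04 SE, adjusted p = 4.00e-07). PLOD3 and MAN1B1 fell further in BT549 than the mean of the other lines, by -0.85 ± 0.04 and -0.82 ± 0.04 (SE). IFI6 fell to 0.294-fold in BT549 and 0.112-fold in COV362, and its difference from the mean of the other lines did not pass (adjusted p = 0.427). PRPF38B rose in all 4 lines, 1.84-fold, 1.87-fold and 2.02-fold in the others, and the difference did not pass (adjusted p = 0.0567).

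**Figure D5:**
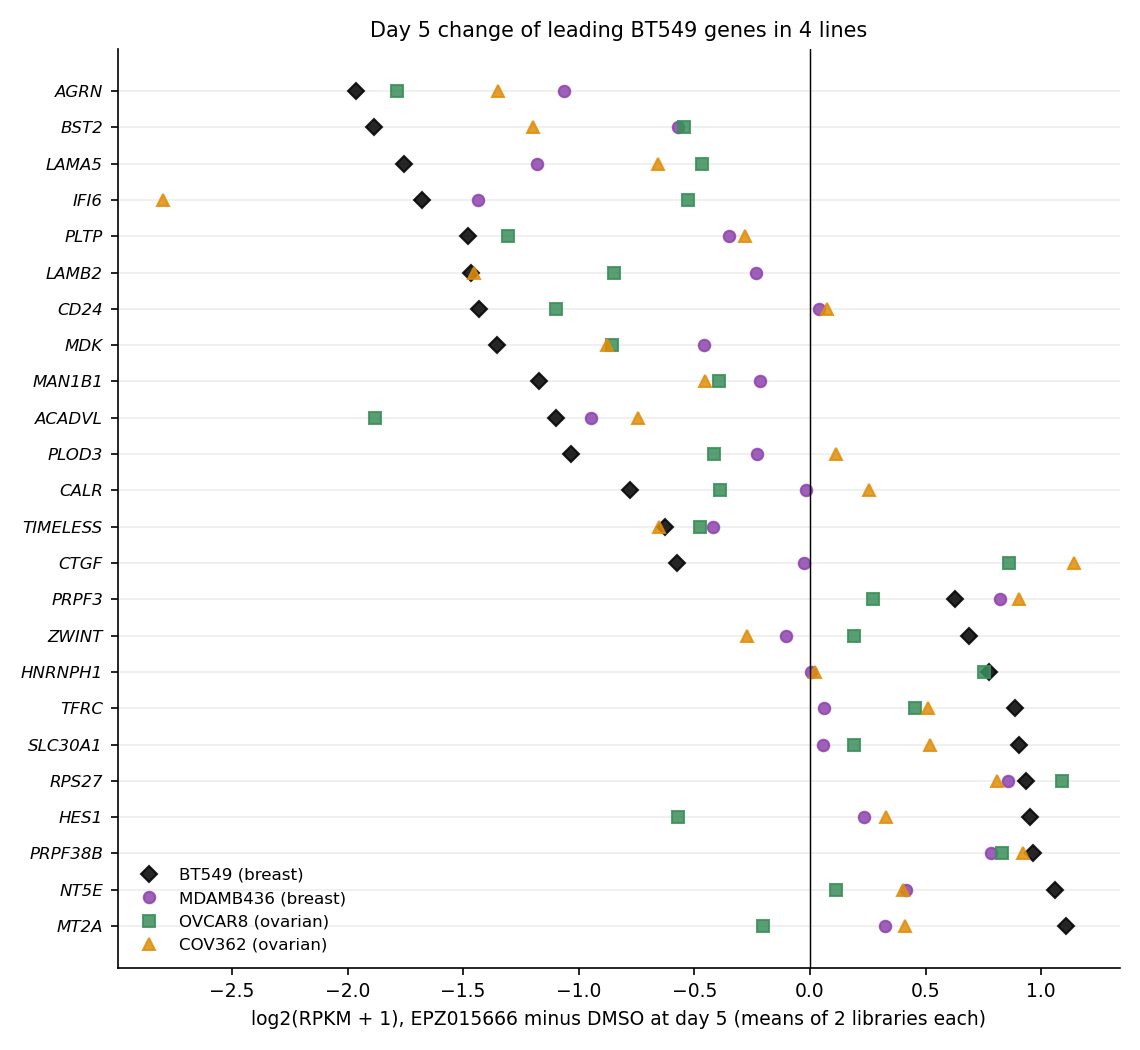
Change in log2(RPKM + 1), EPZ015666 minus DMSO at day 5, for 24 genes in BT549 (black), MDAMB436 (purple), OVCAR8 (green) and COV362 (orange), as differences of means of 2 libraries each. BT549 lies at the right end for MT2A and NT5E and at the left end for BST2, LAMA5 and CD24, while IFI6 lies furthest left in COV362 and ACADVL in OVCAR8.

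The change also varied with base composition. From the fifth of tested genes with the lowest GC content (median 39.2%) to the fifth with the highest (median 62.8%), the median log2 change went from 0.07 to -0.13. The share that rose went from 26.7% to 8.82% and the share that fell from 8.57% to 38.5%. After removing each library's trend with GC content and gene span 1542 genes rose (24.7%) and 1559 fell (25.0%) of 6236. The lists of basement membrane, collagen, lysosomal, class I, interferon, mitotic and ribosome biogenesis genes kept the sign of their median after it, with basement membrane at -0.34 (7 of 10 fell). The part of library preparation in this relation was not tested.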

How the data were processed

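Poly(A) libraries were sequenced for 24 samples of 4 lines. The authors deposited 1 table of RPKM. Counting used featureCounts and the build was GRCh38, per the submitters' processing notes. For aligner, annotation, tool versions and strand setting, nothing was given in the sources used here. The values matched whole reads (100% within 0.02 of a whole number, below 1000 reads) over full GENCODE gene spans for 16544 of 16591 genes, introns included. Reads from overlapping or antisense genes and close copies cannot be told apart.

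Genes with a mean of at least 1 RPKM over 8 BT549 libraries were tested on log2(RPKM + 1) with limma 3.58.1 (R 4.3.3, group means of 4 groups, variance trend, Benjamini-Hochberg adjustment, 0.05). All columns had a sample (0 left over). On simulated data 96.0% of 1.5-fold changes and 99.0% of 2-fold changes were recovered, with 17 false calls among 6126 genes. The simulation gave all genes the same spread beyond counting noise and no difference between vehicle days. These rates may therefore not hold for the real libraries.

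The 75 lists and the members were chosen with earlier results of these data known. Named genes were the 20 largest rises and falls with no overlap between the groups and 5 RPKM or more. Also named were up to 5 members per list by adjusted p, set key genes, and the 10 largest differences by day and by line. Some genes that this rule names are not reported here. Chosen after their values were seen were AL365203.2, ALG2, ALG8, BAG3, CENPB, CENPH, CTSB, DERL2, DHX38, DNAJB6, ERO1A, H1FX, H2AFX, HNRNPA0, HNRNPF, HNRNPH2, HNRNPR, HSP90B1, HSPA5, HSPB1, LAMB1, MCM3, NPC1, NRP1, PIGG, POLE3, RPL7, SLC39A7, SNRNP48 and SPC24. The sensitivity alternatives were other scalings, filters, pseudocounts, fits and vehicles, and 1 library left out.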

Additional observations from a re-analysis of the deposited data

Results flagged for a closer look

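The drug effect at day 5 differed from that at day 3 in 373 genes of BT549 by the test of the difference in limma, a count that single libraries of day 5 can bring down to 0 to 38. Effects in log2(RPKM + 1) were lower at day 5 than at day 3 by -1.09 for CD24, -0.88 for CDKN1C, -0.87 for CFD, -0.84 for COL3A1, -0.81 for C1R, -0.78 for TUBA1A and -0.74 for S100A6. They were higher by 0.64 for MT2A, 0.71 for SLC30A1 and 0.60 for HNRNPH1.

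The day 5 effect in BT549 differed from the mean of MDAMB436, OVCAR8 and COV362 in 1788 of 4702 genes. BT549 was lower by -1.11 for BST2, -1.23 for CTGF, -1.10 for CD24, -0.85 for PLOD3 and -0.82 for MAN1B1. It was higher by 0.93 for MT2A, 0.96 for HES1 and 0.75 for ZWINT. OVCAR8 EPZ015666 replicate B had 4.54% of its reads on ribosomal RNA loci, and without that library the count was 1686.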

How the results depend on the processing

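Of 181 tested genes named in the report, 180 of 180 with a value kept call and direction under recovered reads with voom, 181 of 181 with a pseudocount of 0.1 and 180 with median-of-ratios scaling. Against the vehicle of day 3, 34 lost and 2 gained a call, and 10, of which 6 are among those lost and 1 among those gained, changed sign, to log2 changes of 0.56 for CDKN1A, -0.21 for CCND1, -0.14 for LIF, 0.42 for CTSB, 0.0430 for TUBA1A, 0.0657 for CDKN1C, -0.0105 for ORC6, -0.10 for CDC6, -0.0265 for MCM3 and 0.27 for CA9. Genes at least 2-fold lower were then 47. The cause of these changes was not tested. Of 75 lists, 16 had the opposite direction against the vehicle of day 3, 9 with read sums as library sizes, and 0 with median-of-ratios scaling.

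With no filter, genes at least 2-fold higher were 213 and lower 333, those with a different effect at day 5 and day 3 113, and those with a different effect in the other lines 4658. With a mean of at least 5 RPKM, fewer genes were tested: 412 rose, 690 fell, 5 and 38 did so at least 2-fold, and 231, 590 and 673 differed between the effects of both days, between the DMSO days and between lines. In 1 fit of 24 libraries 1591 differed between the effects of both days, 2275 between the DMSO days and 636 between the EPZ015666 days. Recovered reads with voom gave 2337 rises, 2677 falls, 133 and 249 at least 2-fold, and 1241, 2438, 527 and 3783 for the effects of both days, the DMSO days, the EPZ015666 days and the lines. With read sums as library sizes, an alternative added after seeing the data, these were 3400 rises, 133 and 249 at least 2-fold, and 1474, 2625, 553 and 4067. In both voom settings the fold was that of the deposited RPKM, which read sums did not rescale. The equal counts of 133 and 249 therefore do not test that scaling. The correction for GC content and gene span gave 935, 1788 and 197 for the effects of both days, the DMSO days and the EPZ015666 days.

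Without 1 library, rises ran from 511 to 1260, falls from 870 to 1540, genes at least 2-fold higher from 22 to 29 and lower from 110 to 132. Differences between the effects of both days ran from 0 to 609, between the DMSO days from 158 to 1120, between the EPZ015666 days from 0 to 56 and between lines from 1299 to 1827.

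Deviations of A and B did not go together between DMSO and EPZ015666 in BT549 (correlation -0.00188 at day 5 and -0.170 at day 3). This cannot tell whether libraries of the same letter shared a culture or batch. With a replicate block 750 genes rose and 1097 fell, the effects of both days differed in 0 genes, the DMSO days in 215 and the EPZ015666 days in 0, and 18 named genes lost their call.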
